A study of Mus musculus with 6 samples.

Results

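The genes encoding the subunits of RNA polymerases I, II and III and the single-subunit mitochondrial RNA polymerase were followed in nascent transcription of mouse muscle stem cells (MuSCs). All genes of the deposited PRO-seq table whose symbol begins with Polr1, Polr2 or Polr3, together with Polrmt, were taken, which gave 29 of the 14546 genes listed: 5 genes of RNA polymerase I (Pol I), 13 of Pol II, 10 of Pol III and Polrmt. The study asked how loss of the histone H4 lysine methyltransferase KMT5B (SUV4-20H1) alters transcription in these cells. PRO-seq, in which engaged polymerases are extended with biotin-labelled nucleotides, was performed on 3 control libraries (Ctrl, Pax7CreERT/Suv4-20h1WT) and 3 libraries with the gene inactivated (Kmt5bsKO, Pax7CreERT/Suv4-20h1KO). Every animal carried a tamoxifen-inducible Cre driven by Pax7, so deletion is directed at satellite cells and their progeny, and the floxed Kmt5b allele is what separates the groups. MuSCs were isolated magnetically from limb and trunk muscle of adult mice of both sexes and expanded in culture before labelling. Nothing in the labels says whether libraries of a group came from separate animals, so p-values measure the spread between these libraries.

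Each eukaryotic nuclear polymerase is a large complex. Pol I transcribes the ribosomal RNA precursor, Pol II transcribes messenger RNA precursors and many non-coding RNAs, and Pol III transcribes transfer RNAs, the small ribosomal RNA and other short RNAs. The largest and second-largest subunits of each complex form the catalytic cleft, while a set of small subunits is shared, Polr2e, Polr2f, Polr2h, Polr2k and Polr2l by all of the nuclear polymerases and Polr1c and Polr1d by Pol I and Pol III. All of these subunits are themselves made from Pol II transcripts, so PRO-seq at these genes reads engaged Pol II. Polrmt, a nuclear gene, encodes the enzyme that transcribes mitochondrial DNA.

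The promoters of 6 subunit genes described below are shown. The comparisons of levels and groups rest on PRO-seq values and not on these sequences. Each line gives the 120 bases just before the more upstream of the RefSeq start and the start listed in the deposited table, 5′ to 3′ on the gene's strand. The capitals mark matches, on either strand, to the TBP-bound box TATAAA, the NF-Y box CCAAT, the GC box GGGCGG, the E-box CACGTG, the ETS core CCGGAAG, the NRF1-type motif GCGCATGC or the YY1-type motif AAGATGGC. The motifs share no letters in the printed matches. Sequences are those of RefSeq on GRCm38.p6.
Polr2a, chr11:69758638-69758757, minus strand: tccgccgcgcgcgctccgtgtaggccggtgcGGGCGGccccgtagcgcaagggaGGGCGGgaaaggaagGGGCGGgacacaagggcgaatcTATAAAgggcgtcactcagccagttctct
Polr2i, chr7:30231828-30231947, plus strand: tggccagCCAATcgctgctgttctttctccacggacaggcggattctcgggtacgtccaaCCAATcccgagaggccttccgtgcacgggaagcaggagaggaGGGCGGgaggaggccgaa
Polr2j, chr5:136116511-136116630, plus strand: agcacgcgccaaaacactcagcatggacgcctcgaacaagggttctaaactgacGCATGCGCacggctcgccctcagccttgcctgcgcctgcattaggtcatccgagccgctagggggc
Polr2l, chr7:141475154-141475273, minus strand: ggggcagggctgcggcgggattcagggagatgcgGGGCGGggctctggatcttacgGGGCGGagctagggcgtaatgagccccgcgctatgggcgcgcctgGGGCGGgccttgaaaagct
Polr3g, chr13:81711014-81711133, minus strand: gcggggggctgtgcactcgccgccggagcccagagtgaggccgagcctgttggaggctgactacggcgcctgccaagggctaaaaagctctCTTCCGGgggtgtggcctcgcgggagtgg
Polr3gl, chr3:96594182-96594301, minus strand: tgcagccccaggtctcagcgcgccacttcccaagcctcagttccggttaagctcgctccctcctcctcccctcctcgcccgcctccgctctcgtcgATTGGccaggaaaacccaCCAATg

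The Polr2a window held 3 GC boxes and a TATA box whose first base lay 29 bases before the window's end, whereas the Polr2l window held 3 GC boxes and no TATAAA. The paralogs Polr3g and Polr3gl had no motif in common, with an ETS core in the first and 2 CCAAT boxes in the second. RefSeq promoter windows of 300 bases (250 before and 50 after the start) were found for 23 of the 29 genes. GGGCGG was in 14 of the 23 (60.9%), against 35.7% of all 32851 windows and 62.5% of the windows of tested genes. CCGGAAG was in 8 of 23 (34.8%), against 8.86% of all windows and 17.2% of those of tested genes. TATAAA was in 3 (Polr2a, Polr2c and Polrmt), or 13.0% against 13.6% of all windows and 6.96% of those of tested genes. Of the other motifs, CCAAT was in 6 windows (26.1%, against 37.4% of all windows and 37.4% of those of tested genes) and CACGTG in 4 (17.4%, against 7.15% and 9.87%). GCGCATGC was in 3 (13.0%, against 2.71% and 5.17%) and AAGATGGC in 0 (against 2.75% and 4.21%). The median GC content of the subunit windows was 60.7%, and that of the windows of tested genes 61.0%. A motif match describes the letters only, and these shares were not tested.

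The genes differ widely in size. In the GENCODE annotation of GRCm38 the listed isoforms span 1443 bases (Polr2i, chr7:30231948-30233390) to 104887 bases (Polr3b, chr10:84622292-84727178), with a median of 10452 bases against 21217 for all tested genes. They have 2 exons (Polr2l) to 34 exons (Polr1a). Exons made up a median of 14.8% of the gene body. None of the 29 isoforms overlapped another protein-coding gene on its own strand, which 6.22% of tested genes did. Within 1000 bases upstream of 10 of the 29 starts (34.5%) an oppositely oriented protein-coding gene began, against 11.3% of 12431 tested genes, a difference that was not tested. The divergent pairs were Polr1a with Ptcd3, Polr1c with Yipf3, Polr1d with Lnx2, Polr2b with Noa1, Polr2f with 1700088E04Rik, Polr2l with Tspan4, Polr3a with Rps24, Polr3c with Rnf115, Polr3f with Dzank1 and Polr3g with Mblac2. The annotation holds 1 processed pseudogene of the family, Polr2k-ps. Reads of Polr2k and its copy could be confused, because 1 alignment was kept at random where a read mapped to several places.

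Values were read in 2 regions of each gene. The TSS region is the first 400 bases of the listed isoform and is given as RPM, reads scaled to the same total over TSS regions in each library, and the gene body is the rest and is given as TPM, which also corrects for length. The listed genes held 926904 to 3246052 TSS reads and 7425424 to 16249192 body reads per library. The subunit genes themselves rested on 5 to 2099 TSS reads and 24 to 3174 body reads per library. In the gene body, Ctrl replicate 3 was the lowest of the 6 libraries for 33.3% of the tested genes and for 9 of the 29 subunit genes. Kmt5b, the targeted gene, was not lower in the mutant, with 30.6, 35.4 and 38.5 TPM in Ctrl against 37.8, 35.0 and 42.6 TPM in Kmt5bsKO, so these values do not check the genotype. All 7 markers of muscle stem cells and myoblasts were measured, with a summed gene body level of 1532 to 2279 TPM in Ctrl and 2023 to 2729 TPM in Kmt5bsKO. The 8 markers of mature fibres summed to 686.5 to 1313 TPM in Ctrl and 1544 to 2151 TPM in Kmt5bsKO. Endothelial markers summed to 2.50 to 4.23 TPM in Ctrl and 4.38 to 5.05 TPM in Kmt5bsKO, also without overlap. Fibro-adipogenic markers summed to 6.01 to 17.99 TPM in Ctrl and 13.01 to 13.89 TPM in Kmt5bsKO. Glial markers summed to 8.75 to 9.90 TPM in Ctrl and 14.75 to 22.97 TPM in Kmt5bsKO, again without overlap. Sox10 among them was called higher in the gene body (1.56 on the log2 scale, limma adjusted p = 0.0754). Blood cell and macrophage markers summed to 214.2 to 402 TPM in Ctrl and 319.8 to 326.2 TPM in Kmt5bsKO, nearly all of it from Cd68, while Itgam stayed below 1 TPM and Ptprc, Adgre1 and Csf1r were not listed. Fewer cells of a type and less RNA per cell cannot be told apart in these bulk libraries, and the part of the fibre, glial and other markers in the values below was not tested.

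All 29 genes were transcribed, and their levels lay close to those of other genes. The median gene body level over the 6 libraries was 18.7 TPM for the subunit genes and 15.9 TPM for all 12451 genes tested, and 21 of the 29 lay above the median gene. In the TSS region the median was 22.2 RPM against 23.0 RPM for all tested genes. Gene body levels of the subunit genes differed by 9.16-fold, from 9.16 TPM (Polr1e, a Pol I subunit) to 84.0 TPM (Polr2i, a small Pol II subunit). Within Pol II they ran from 10.6 TPM (Polr2d) to 84.0 TPM (Polr2i), and within Pol I from 9.16 TPM (Polr1e) to 33.1 TPM (Polr1c). The standard deviation between subunit genes was 0.83 on the log2 scale, and the median standard deviation between libraries of a group was 0.22, so the genes differed from each other by more than the libraries did. TSS region levels differed more, by 70.9-fold, with a standard deviation of 1.21 between genes and 0.35 between libraries. Ordered by gene body level, Polr2i, Polr2m and Polr2a were on top, followed by Polr3d at 35.0 TPM. Of all neighbours in that order, only Polr2a and Polr3d had ranges over the 6 libraries that did not overlap.

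**Figure D1:**
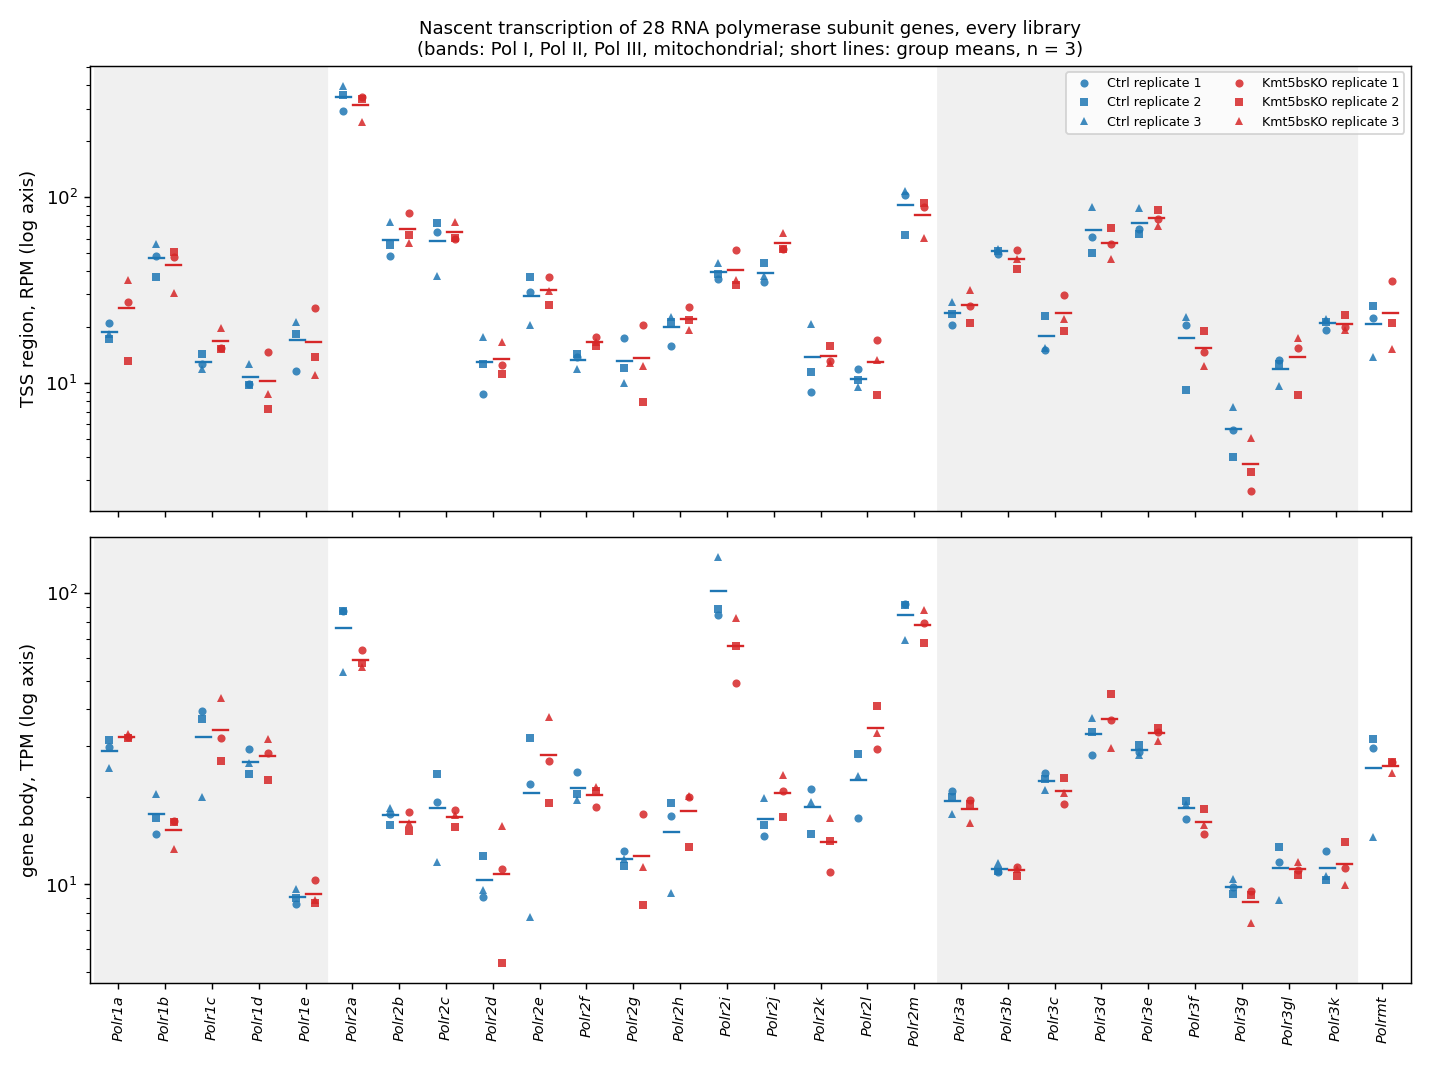
TSS region level (top, RPM, log axis) and gene body level (bottom, TPM, log axis) of 28 subunit genes in each of the 3 Ctrl and 3 Kmt5bsKO libraries, with short lines at the group means. Polr2a stands above all others in the TSS region, Polr2i, Polr2m and Polr2a stand highest in the gene body, and Ctrl and Kmt5bsKO points overlap for most genes.

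The largest subunits were read first. Polr2a encodes the largest Pol II subunit, which carries the heptad-repeat tail. Its TSS region held 289.8, 355 and 398 RPM in Ctrl against 348, 338 and 254 RPM in Kmt5bsKO, the highest level of the family in every library. Its gene body held 86.8, 87.0 and 53.9 TPM in Ctrl against 63.8, 57.6 and 56.1 TPM in Kmt5bsKO. Ctrl replicates 1 and 2 thus lay above all mutant libraries and Ctrl replicate 3 lay below them. The gene body difference, Kmt5bsKO over Ctrl, was -0.33 ± 0.20 on the log2 scale (SE, n = 3 a group, limma adjusted p = 0.515). Without Ctrl replicate 3 it was -0.55 with an adjusted p of 0.0673, which passes the threshold of 0.1, and no other library changed the call when left out.

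Polr2b, the second-largest Pol II subunit, varied little, with 17.5, 16.04 and 18.3 TPM in the Ctrl gene bodies and 17.8, 15.3 and 16.3 TPM in Kmt5bsKO. Its TSS region held 48.2, 55.2 and 73.3 RPM in Ctrl against 82.6, 62.7 and 56.6 RPM in Kmt5bsKO, and both regions overlapped between groups. Polr1a, the largest Pol I subunit, had 29.7, 31.3 and 25.1 TPM in Ctrl gene bodies against 32.1, 31.7 and 32.9 TPM in Kmt5bsKO. The 3 mutant libraries lay just above all controls, by 0.17 ± 0.13 on the log2 scale (SE, limma adjusted p = 0.607). In its TSS region the groups overlapped, at 21.1, 17.2 and 18.4 RPM in Ctrl against 27.2, 13.2 and 35.9 RPM in Kmt5bsKO. Polr1b, the second-largest Pol I subunit, had 14.9, 16.9 and 20.5 TPM in Ctrl gene bodies against 16.5, 16.4 and 13.3 TPM in Kmt5bsKO. Its TSS region held 48.2, 37.4 and 56.1 RPM in Ctrl against 47.9, 50.9 and 30.4 RPM in Kmt5bsKO, again with overlap.

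Polr3a, the largest Pol III subunit, had 20.9, 19.9 and 17.4 TPM in Ctrl gene bodies against 19.4, 18.9 and 16.2 TPM in Kmt5bsKO, and 20.6, 23.6 and 27.5 RPM against 25.9, 21.1 and 31.7 RPM in the TSS region. Polr3b, its catalytic partner, had closely grouped gene body values, at 11.1, 11.1 and 11.8 TPM in Ctrl against 11.5, 10.7 and 11.3 TPM in Kmt5bsKO. The 95% interval of its log2 difference ran from -0.32 to 0.28. Its TSS region held 49.6, 51.1 and 52.5 RPM in Ctrl against 51.8, 40.9 and 46.5 RPM in Kmt5bsKO. Polrmt had 29.5, 31.6 and 14.6 TPM in Ctrl gene bodies against 26.3, 26.3 and 24.2 TPM in Kmt5bsKO, so that Ctrl replicate 3 was low and the other libraries were close together. Its TSS region ranged from 13.8 RPM in Ctrl replicate 3 to 35.4 RPM in Kmt5bsKO replicate 1, with 22.5 and 25.9 RPM in the other Ctrl libraries and 21.1 and 15.2 RPM in the other mutant libraries.

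None of the 29 genes passed the test between Kmt5bsKO and Ctrl at an adjusted p under 0.1. In the TSS region limma called 0 of 29 subunit genes, against 1.66% of all tested genes (116 higher and 91 lower of 12451). In the gene body it called 0 of 29, against 2.99% (200 higher and 172 lower). edgeR on the recovered reads also called 0 of 29 in each region. At an unadjusted p under 0.05, limma gave 1 subunit gene in the TSS region, against 11% of all genes, and 2 in the gene body, against 15.9%, while edgeR gave 0 in either. At these background shares a family of 29 genes moving like the rest would hold under 1 called gene, so a count of 0 does not set it apart. The median log2 difference of the 29 genes was 0.10 in the TSS region, where that of all tested genes was 0.08, and -0.03 in the gene body, where it was 0.02. By polymerase the gene body medians were 0.06 for Pol I, -0.05 for Pol II and -0.06 for Pol III, and the TSS region medians were -0.07, 0.12 and 0.04.

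The intervals say more than the calls, within a limit set by the scaling. Each region was scaled to a total in each library, so every difference is relative to the other genes. A change shared by all genes would not show in the medians or the intervals. In the gene body the 95% interval of the difference lay within 2-fold in either direction for 26 of the 29 genes, against 76.1% of all tested genes. The exceptions were Polr2e, Polr2i and Polr2l, which encode small subunits. In the TSS region the interval lay within 2-fold for 24 of 29, against 55% of all tested genes. For Polr3e, with 627 to 1152 body reads per library, the interval ran from -0.08 to 0.46 on the log2 scale, and for Polr1a, with 1518 to 3174, from -0.13 to 0.47. For Polr2e, with 38 to 125, it ran from -0.57 to 1.74.

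**Figure D2:**
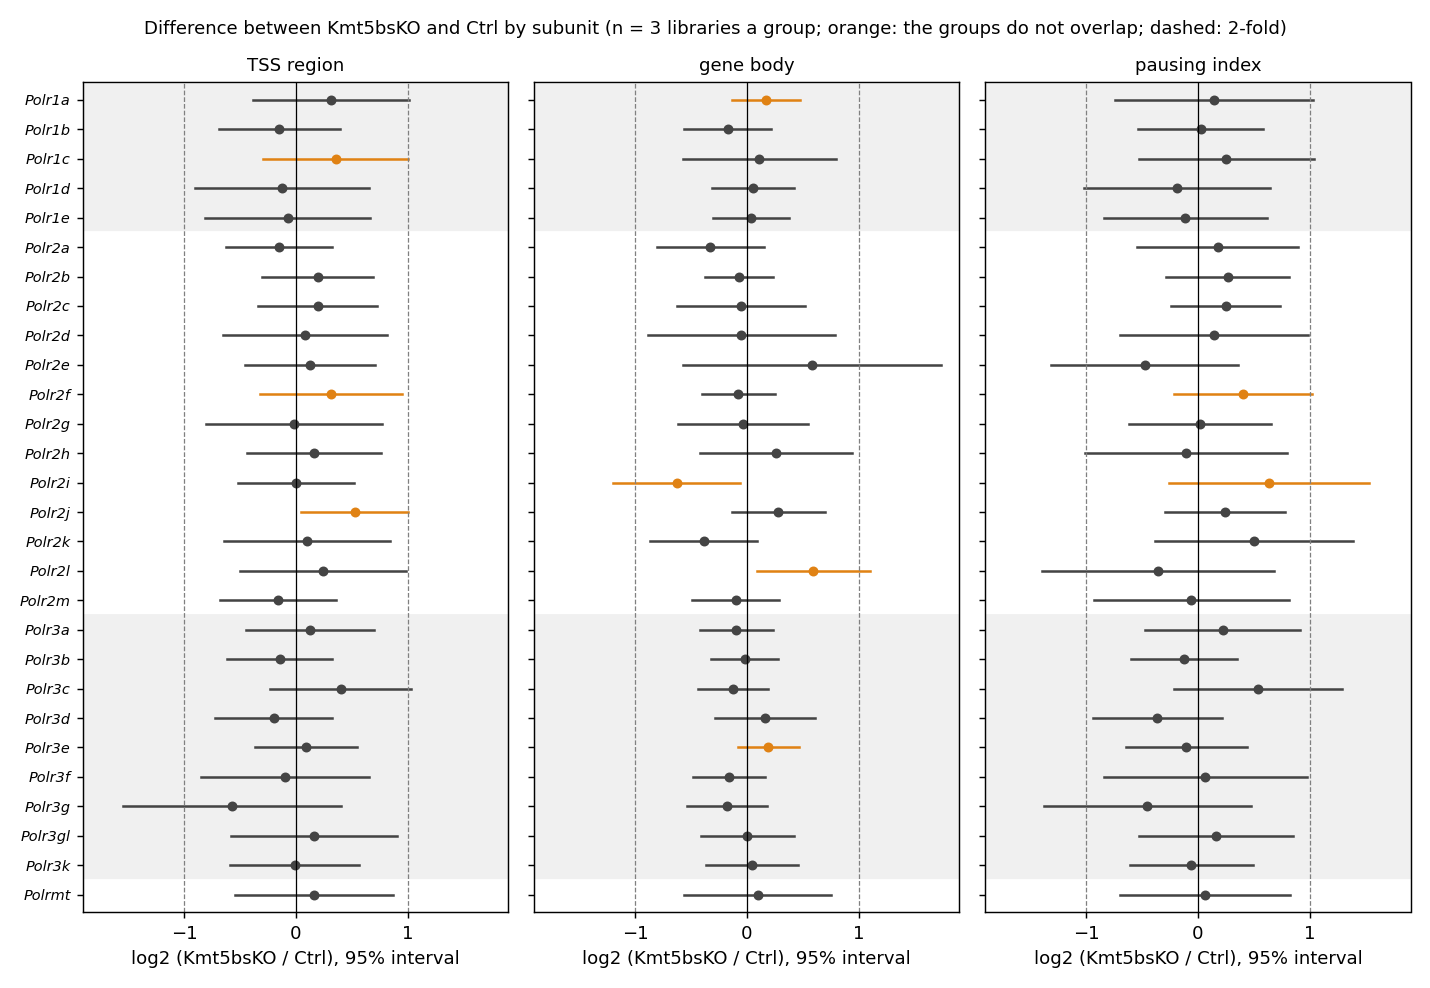
Difference between Kmt5bsKO and Ctrl for each of 28 subunit genes (log2, with 95% intervals from limma, n = 3 libraries a group) in the TSS region, the gene body and the pausing index; orange marks genes whose groups do not overlap and dashed lines mark 2-fold. Most intervals span 0 and lie between the dashed lines, and those of Polr2i and Polr2l in the gene body and of Polr2j in the TSS region do not span 0.

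Ctrl and Kmt5bsKO libraries did not overlap for 4 of the 29 genes in the TSS region, against 15.6% of all tested genes, and for 4 in the gene body, against 21.4%. These shares of 13.8% in each region lay below the background only by a few genes in a family of 29, so they do not set it apart. Polr2i, which encodes a zinc-ribbon subunit at the Pol II jaw, had the most negative difference, with gene bodies at 84.6, 88.5 and 133 TPM in Ctrl against 49.2, 65.9 and 82.5 TPM in Kmt5bsKO. Its log2 difference was -0.63 ± 0.24 (SE, n = 3 a group, limma adjusted p = 0.275) with an interval from -1.20 to -0.06. In its TSS region the groups overlapped, at 36.3, 38.5 and 44.5 RPM in Ctrl against 52.1, 33.7 and 35.9 RPM in Kmt5bsKO. Polr2i is the shortest gene of the family, with a body of 1043 bases and 45 to 198 body reads per library. Polr2l, a small subunit shared by all of the nuclear polymerases, had higher gene body values in the mutant, at 16.9, 28.1 and 23.6 TPM in Ctrl against 29.1, 40.9 and 33.2 TPM in Kmt5bsKO. The difference was 0.59 ± 0.22 (SE, limma adjusted p = 0.243), on 71 to 97 body reads per library. Its TSS region overlapped, at 11.9, 10.3 and 9.47 RPM in Ctrl against 17.1, 8.58 and 13.3 RPM in Kmt5bsKO.

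Polr3e, a subunit found only in Pol III, had 28.5, 30.2 and 27.9 TPM in Ctrl gene bodies against 33.5, 34.6 and 31.2 TPM in Kmt5bsKO, a difference of 0.19 ± 0.12 (SE, limma adjusted p = 0.491). Polr2j encodes a subunit that pairs with the Polr2c product to nucleate Pol II assembly. Its TSS region held 35.1, 44.2 and 37.7 RPM in Ctrl against 52.5, 52.8 and 63.9 RPM in Kmt5bsKO, all mutant libraries above all controls. The difference was 0.53 ± 0.23 (SE, limma adjusted p = 0.385) with an interval from 0.05 to 1.01. In its gene body, at 14.7, 16.04 and 19.8 TPM in Ctrl against 21.0, 17.0 and 23.7 TPM in Kmt5bsKO, the groups overlapped. Polr1c, shared by Pol I and Pol III, had TSS regions at 12.6, 14.4 and 11.9 RPM in Ctrl against 15.4, 15.2 and 19.8 RPM in Kmt5bsKO. Polr2f, another shared subunit, had 13.8, 14.4 and 11.9 RPM in Ctrl against 17.7, 15.8 and 16.6 RPM in Kmt5bsKO. Both differed by under 0.4 on the log2 scale, with adjusted p of 0.768 and 0.802 in limma.

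The gene bodies of several genes turned on Ctrl replicate 3. Polr2e, shared by all of the nuclear polymerases, had 22.2, 31.9 and 7.72 TPM in Ctrl against 26.6, 19.1 and 37.7 TPM in Kmt5bsKO. Its log2 difference of 0.58 fell to 0.01 without Ctrl replicate 3. On the log2 scale Ctrl replicate 3 lay below the mean of the other Ctrl libraries by more than 0.5 for 6 genes, with differences of -1.72 for Polr2e, -1.04 for Polrmt, -0.92 for Polr2h, -0.91 for Polr1c, -0.82 for Polr2c and -0.68 for Polr2a. In contrast it was the highest library for Polr2i, by 0.62 above the mean of the other Ctrl libraries. Across the 29 genes this deviation was close to unrelated to gene body length (Spearman rho = 0.04 over genes that share the same libraries, given as a description). Ctrl replicate 3 lay below by more than 0.5 for 3 of 7 genes with bodies under 5000 bases and for 3 of 22 longer ones. The share of all tested genes that deviated as far was not counted. Since Ctrl replicate 3 was the lowest gene body library for 33.3% of all tested genes, these counts are not read as a trait of the family.

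**Figure D3:**
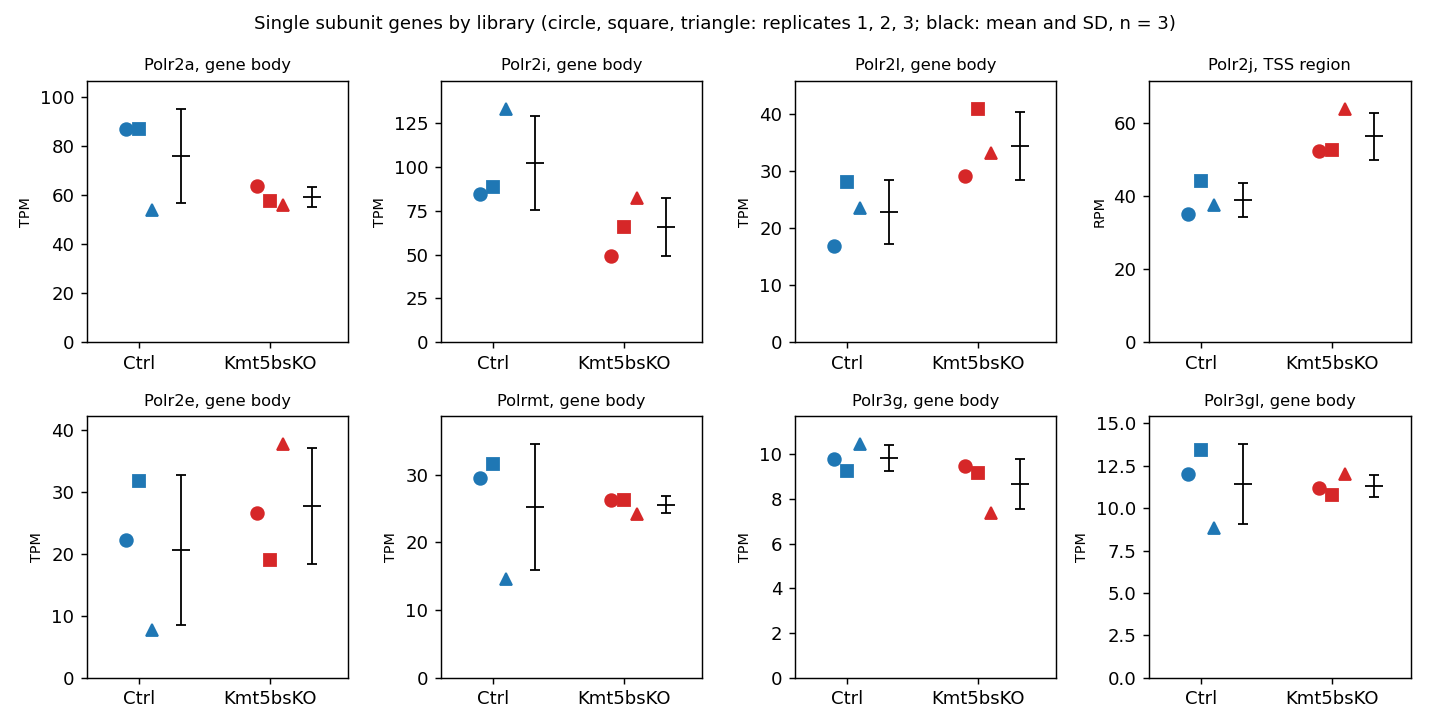
Values in each library for 8 subunit genes (gene body in TPM, or TSS region in RPM for Polr2j; circles, squares and triangles for replicates 1, 2 and 3; black bars for the mean and SD, n = 3). Ctrl replicate 3 is the lowest Ctrl library for Polr2a, Polr2e, Polrmt and Polr3gl and the highest for Polr2i and Polr3g.

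Of the subunits not yet described, Polr1d, Polr1e, Polr2c, Polr2d, Polr2g, Polr2h, Polr2k, Polr2m, Polr3c, Polr3d, Polr3f, Polr3g, Polr3gl and Polr3k overlapped between groups in both regions. Polr2k, shared by all of the nuclear polymerases, had 21.3, 14.9 and 19.1 TPM in Ctrl gene bodies against 11.1, 14.1 and 16.9 TPM in Kmt5bsKO, a difference of -0.39 ± 0.20 (SE, limma adjusted p = 0.428). Polr2d, which with the Polr2g product forms the stalk of Pol II, ranged from 5.39 to 15.8 TPM in Kmt5bsKO, on as few as 25 reads. Polr2m encodes a factor that binds Pol II and is not part of the catalytic core, and its gene body was at 91.8, 91.1 and 69.2 TPM in Ctrl against 79.1, 67.8 and 87.7 TPM in Kmt5bsKO.

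Polr3g and Polr3gl encode alternative versions of one Pol III subunit, of which the Polr3g form is known for high expression in stem and transformed cells. In the gene body Polr3g was at 9.80, 9.27 and 10.4 TPM in Ctrl against 9.47, 9.18 and 7.38 TPM in Kmt5bsKO, and Polr3gl at 12.0, 13.4 and 8.84 TPM in Ctrl against 11.2, 10.8 and 12.0 TPM in Kmt5bsKO. Both genes were thus transcribed at like levels per length. The log2 ratio of Polr3g to Polr3gl was -0.28, -0.51 and 0.23 in Ctrl and -0.23, -0.22 and -0.66 in Kmt5bsKO. The means of -0.19 ± 0.38 and -0.37 ± 0.25 (SD, n = 3) differed by -0.18 (two-sided exact permutation test, p = 0.6, where 3 against 3 cannot go below 0.1). In the TSS region Polr3g was the lowest of the family, at 5.57, 4.02 and 7.39 RPM in Ctrl against 2.62, 3.30 and 5.06 RPM in Kmt5bsKO. Polr3gl was there at 13.3, 12.6 and 9.66 RPM in Ctrl against 15.4, 8.58 and 17.5 RPM in Kmt5bsKO, and the same ratio taken in the TSS region differed by -0.74 (exact permutation test, p = 0.2). With 5 to 39 TSS reads per library for Polr3g, its TSS interval ran from -1.54 to 0.40 on the log2 scale.

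The pausing index, TSS region RPM over gene body TPM, sets the reads near the start against those along the gene. Each region was scaled to its own total in a library, so the index is relative to the other genes of that library. A shift of the balance shared by all genes would not show in it. In reads that balance varied, with 1066287 TSS and 13582322 body reads in Ctrl replicate 2 against 3246052 and 14241295 in Ctrl replicate 3. Its median over the 29 genes was 1.34, against 1.59 for the 11698 genes whose values exceeded 0 everywhere. It ran from 0.39 for Polr1d and 0.44 for Polr2l to 4.33 for Polr3b and 5.11 for Polr2a, whose index was higher than that of 92.5% of these genes. Polr2a had 3.34, 4.08 and 7.38 in Ctrl and 5.46, 5.87 and 4.53 in Kmt5bsKO. Polr3b had 4.49, 4.61 and 4.43 in Ctrl and 4.51, 3.82 and 4.10 in Kmt5bsKO. For Polr2a the index was highest in Ctrl replicate 3, while for Polr3b the libraries lay close together. The genes of the largest and second-largest subunits did not form one class, since Polr1b (mean 2.74), Polr2b (3.74) and Polr3b were high while Polr1a (0.72), Polr3a (1.36) and Polrmt (0.88) lay below the median of all genes. Pausing index and gene body length were weakly related (Spearman rho = 0.25 across the 29 genes, a description), as were TSS region and gene body levels (rho = 0.40).

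**Figure D4:**
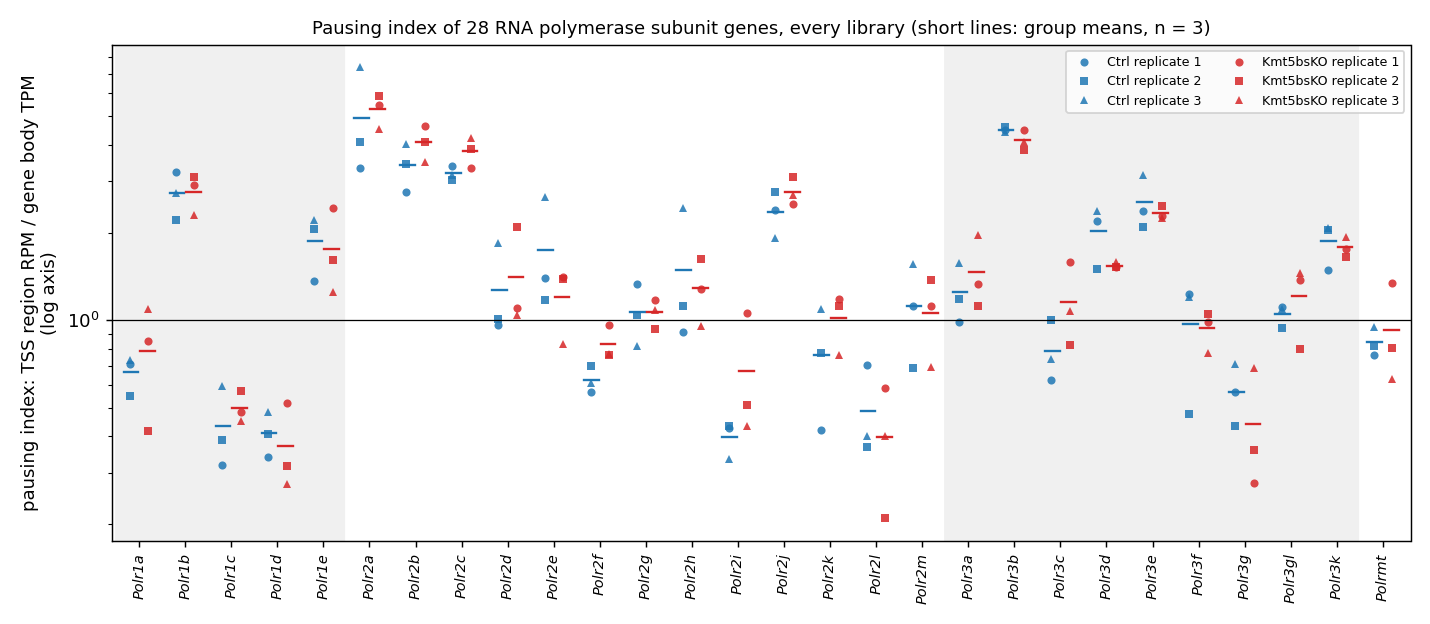
Pausing index (TSS region RPM over gene body TPM, log axis, horizontal line at 1) of 28 subunit genes in each library, with short lines at the group means. Polr2a, Polr3b and Polr2b lie highest, Polr1d and Polr2l lowest, and Ctrl and Kmt5bsKO overlap for all but Polr2f and Polr2i.

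Between groups, limma called 0 of 29 pausing indices and 0% of all 11698, with 0 of 29 at an unadjusted p under 0.05 against 3.86% of all genes. The groups did not overlap for 2 of 29, against 9.02%. Polr2i was at 0.429, 0.435 and 0.335 in Ctrl and 1.06, 0.511 and 0.435 in Kmt5bsKO, where the lowest mutant library only just exceeded the controls. Polr2f was at 0.57, 0.70 and 0.61 in Ctrl and 0.96, 0.76 and 0.77 in Kmt5bsKO. The interval lay within 2-fold for 18 of 29 genes, against 55.9% of all.

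The factors that work with these polymerases were read from 6 lists: subunits under older symbols, Pol I, Pol II and Pol III transcription factors, mitochondrial transcription factors and polymerase assembly factors. Of 78 genes 76 were tested and 0 were called in either region, with 5 at an unadjusted p under 0.05 in the TSS region (6.58%, below the 11% of all genes) and 3 in the gene body (3.95%, below 15.9%). Their median log2 differences were -0.02 and -0.03. Tbp, the TATA-binding protein used by all of the nuclear polymerases, had gene bodies at 22.3, 23.3 and 25.4 TPM in Ctrl against 24.4, 22.1 and 20.6 TPM in Kmt5bsKO. Maf1, a repressor of Pol III, had 28.6, 19.7 and 15.2 TPM in Ctrl against 19.8, 17.7 and 20.4 TPM in Kmt5bsKO. Neither passed the test in the gene body (adjusted p = 0.827 and 0.91, limma). In the TSS region the log2 differences were -0.50 for Tbp and 0.48 for Maf1 (adjusted p = 0.45 and 0.66, limma). Tbp was among the 5 genes at an unadjusted p under 0.05 there.

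In the same libraries most genes of a proliferation list were lower in Kmt5bsKO. The list was chosen with earlier results of these data known, so its median is no independent measure. Of 9 proliferation genes, 6 were called lower in the gene body (Pcna, Cdk1, Top2a, Ccna2, Mcm5 and Bub1), where 2.99% of all tested genes were called. In the TSS region 4 were called lower (Pcna, Top2a, Ccna2 and Mcm5), where 1.66% of all were called. The medians of the 9 genes were -1.22 and -0.90 on the log2 scale. Mki67 (-1.22) and Mcm2 (-1.08) were lower in the gene body without passing the threshold, and Ccnb1 was at -0.02. Pcna, the replication clamp, was at 94.0, 75.9 and 89.3 TPM in Ctrl against 25.2, 44.4 and 43.3 TPM in Kmt5bsKO (limma adjusted p = 0.0743). In the gene body of each of the 6 genes called lower, every Ctrl library lay above every Kmt5bsKO library. The call in the same libraries largely implies this, so it is no separate support. Of all tested genes 21.4% did not overlap between groups in the gene body. Without Ctrl replicate 1, or without any one of the Kmt5bsKO libraries, 0 of 12451 genes of the whole table passed the threshold in the gene body. For all 29 subunit genes the 95% interval of the gene body difference lay above -1.22, the median of the proliferation genes, which ran from -1.44 to -0.02. The margin was small for Polr2i, whose interval reached -1.20. In the TSS region this did not hold for Polr3g, whose interval reached -1.54, below the proliferation median of -0.90 there. The share of all tested genes with gene body intervals above -1.22 was not counted. For 76.1% of them the interval lay within 2-fold in either direction and thus above -1.22. The 29 of 29 is therefore not read as a trait of the family.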

How the data were processed

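PRO-seq reads of 3 Ctrl and 3 Kmt5bsKO libraries were processed by the authors, who per the submitters' processing notes and the methods checked reads with FastQC 0.11.8, trimmed them with Trimmomatic 0.39, aligned them with STAR 2.6.1d to GRCm38 (mm10), kept 1 random alignment of a multi-mapped read and removed duplicates with Picard 2.18.16. Sense-strand reads were counted by the authors in the TSS region (first 400 bases) and the gene body of 1 isoform per gene, the one with the highest mean TSS value. The headers of the deposited TSS values name TPM. All TSS regions are 400 bases long, so the deposited values equal reads scaled to a total over TSS regions and are called RPM here. They are whole multiples of what 1 read is worth in 100% of values up to 100 reads, within 0.1 read. The deposited gene body values are TPM, in which short genes gave whole reads in the same way. Duplicate removal without molecular identifiers can merge reads of short, dense regions, and counting error alone does not cover this.

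Autosomal genes averaging 0.5 or more in each region were tested (12451 of 14546), and all 29 subunit genes passed this filter. limma 3.58.1 in R 4.3.3 was fitted to log2(value + 0.5), so fold changes of low genes are understated, with eBayes with a trend, Benjamini-Hochberg adjustment over all tested genes and a threshold of adjusted p under 0.1. For the pausing index the log2 ratio itself was fitted, with no pseudocount, in 11698 genes. The Polr3g to Polr3gl ratio was tested by a two-sided exact permutation test over libraries. edgeR 4.0.16 (quasi-likelihood test, TMM) on the recovered reads, other pseudocounts, no filter, centring, a replicate block and leaving out each library were alternatives. The genes described library by library are the largest subunits, Polrmt, Polr3g, Polr3gl and the subunits whose groups did not overlap with the largest differences. Other subunits named are examples chosen after their values were seen. For 1 subunit gene, which stays in the counts and medians, no values are reported here. The subunit genes and the lists were chosen with earlier results of these data known. Scripts were tested on simulated data. Libraries of equal number did not deviate together (correlations of deviations from the group means of -0.329 to -0.0337), so they were not paired. Coordinates and neighbours are from GENCODE vM21 (GRCm38), which held the listed isoforms of 12431 tested genes.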

Additional observations from a re-analysis of the deposited data

How the results depend on the processing

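In the TSS region and for the pausing index, 0 subunit genes were called under every alternative run. In the gene body 0 were called under each alternative except one: leaving out 1 library at a time gave 0 to 1 called genes, the 1 being Polr2a without Ctrl replicate 3 (-0.55, adjusted p = 0.0673, limma), against -0.33 with all libraries and -0.21 without Ctrl replicate 1 or 2. Taking the replicate number as a block left 0 subunit genes called in either region and took the calls among all tested genes to 0 in both regions. With the block the Polr3g to Polr3gl difference stayed at -0.18 (p = 1, exact sign permutation of 3 differences). The median gene body difference of the 29 genes ranged from -0.10 to 0.01 when single libraries were left out and that of the TSS region from 0.03 to 0.19. The Polr3g to Polr3gl difference ranged from -0.35 to 0.02, turning to 0.02 without Ctrl replicate 3. Gene body calls among all genes were 836 without Ctrl replicate 3, 261 without Ctrl replicate 2 and 0 without Ctrl replicate 1 or any one Kmt5bsKO library, against 372 with all libraries, and 748 by edgeR. TSS region calls were 1 without Ctrl replicate 1, 408 without Ctrl replicate 2 and 270 without Ctrl replicate 3, against 207 with all libraries. They were 16 without Kmt5bsKO replicate 1, 132 without Kmt5bsKO replicate 2 and 46 without Kmt5bsKO replicate 3. By edgeR they were 279, and with no filter or without the trend they were 0. The cause of these shifts was not tested. Reads limit the small genes most: 24 body reads (Polr2k) and 5 TSS reads (Polr3g) were the lowest counts in a library.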
